A study of Mus musculus with 2 samples.

Results

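Mir21a is the mouse gene for miR-21, and its reads were followed here in heart tissue. It was found by its gene name among 2202 annotated miRNA genes, as 1 gene, with the related hairpins Mir21b and Mir21c beside it. The tissue came from adult male B6CASTF1/J mice (a cross of C57BL/6J with CAST/EiJ) aged 18 to 20 months, with no treatment named. There were 2 libraries of RNA under 30 bases, biological replicates 1 and 2 of 1 group, which have separate biosamples but a shared donor entry. The labels therefore do not show that the hearts came from separate animals, and the spread between the libraries may be technical. No other tissue, age or treatment was profiled, so the only comparison is between these libraries, and p-values given for it rest on read counts and say nothing of a condition.

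A miRNA is cut from a hairpin precursor, and 1 arm of it, loaded into an Argonaute protein, pairs through its seed (bases 2 to 8) with messenger RNAs and lowers their output. miR-21 is known in the heart from cardiac fibroblasts and immune cells, where it rises after infarction, pressure overload and with fibrosis, and its textbook targets include Spry1, Pdcd4 and Reck, which restrain growth or matrix breakdown. It is also a common miRNA of dividing and inflamed tissues elsewhere, including epithelia.

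The Mir21a hairpin (ENSMUSG00000065455.1) lies on the minus strand of chromosome 11 in the build GRCm38 (mm10), from 86584067 to 86584158. In the annotation it sits inside the last exon of Vmp1-201, exon 12 (86583865 to 86585451), within the annotated 3′ UTR, on the same strand as Vmp1, a gene for a membrane protein of autophagy. The mature sequences of the 3 hairpins are shown because they decide which reads could be assigned to which copy. They are from RefSeq (GRCm38.p6), 5′ to 3′, with the seed in capitals.
miR-21a-5p: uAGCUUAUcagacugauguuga
miR-21a-3p: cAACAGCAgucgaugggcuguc
miR-21b: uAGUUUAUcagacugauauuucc
miR-21c: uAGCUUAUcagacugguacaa

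miR-21a-5p lies at chr11:86584120-86584141 and the other arm, miR-21a-3p, at chr11:86584082-86584103. The counts are per hairpin, so reads of both arms are summed in the Mir21a value. Of 1738 mature sequences in the RefSeq table, miR-21a-5p and miR-21c were the 2 that carry this seed. miR-21c, from Mir21c on chromosome 8, was identical to miR-21a-5p over the first 15 bases and then differed at A16G, G18A, U19C, U20A and G21A (position counted from 1 at the 5′ end, the miR-21a-5p base first). miR-21b, from Mir21b on chromosome 3, differed inside the seed at C4U and further on at G18A, G21U and A22C. The longest stretch that the Mir21a hairpin shares with any of the other miRNA hairpins was 15 bases, with Mir21c, and it shared 13 with Mir21b. A full-length miR-21a read is therefore distinct from all other annotated miRNA hairpins, while copies elsewhere in the genome were not searched.

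The libraries held 3037063 (replicate 1) and 5284446 (replicate 2) reads in miRNA genes, 32.1% and 27.0% of all their reads. Unmapped reads made up 19.4% and 34.3%, and reads mapped to several places, which no gene count holds, 40.7% and 32.5%. Levels are counts per 1000000 reads in miRNA genes (CPM), not divided by length, since mature miRNAs are of nearly 1 length. Reads of the myosin-intron miRNAs Mir208a and Mir499 went with the heart label in both libraries. They had 15744 and 16882 reads in replicate 1 and 48375 and 28998 in replicate 2. Of the other listed cardiomyocyte genes, Mir208b (152 and 612 reads) and Mir133b (28 and 51) had far fewer. Mir1a-2, Mir1a-1, Mir133a-1 and Mir133a-2, genes of the best known heart muscle miRNAs, had at most 141 reads each. Their mature sequences come from more than 1 hairpin, and shares given here are of the counted reads only, not of all miRNA in the tissue.

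Mir21a had 5768 sense reads in replicate 1 and 80270 in replicate 2. These are 1899 and 15190 CPM, or 0.190% (95% Wilson interval 0.185 to 0.195) and 1.52% (1.51 to 1.53) of the miRNA reads. Replicate 2 was high and replicate 1 low, and the intervals, which cover counting error only, do not overlap. The mean was 8545 ± 9398 CPM (SD, n = 2), an SD larger than the mean, so no single level can be given for this tissue. Put another way, 1 in 527 miRNA reads of replicate 1 and 1 in 65.8 of replicate 2 came from Mir21a. The opposite strand at Mir21a had 2 reads and 1 read, no more than the 3 reads that a count of 0 allows.

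Mir21b and Mir21c had 0 reads in both libraries, on either strand. The upper limit for such a count is 3 reads, which is 0.988 CPM at the depth of replicate 1 and 0.568 CPM at that of replicate 2. Mir21a was thus at least 1923-fold higher than either copy in replicate 1 and at least 26757-fold higher in replicate 2, against that limit of 3 reads per library. Reads too short to tell miR-21a from miR-21c would map to both places and be counted for neither.

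In rank, Mir21a was number 48 of 615 genes with reads in replicate 1 and number 17 of 674 in replicate 2. The genes down to its own rank held 94.8% of the miRNA reads in replicate 1 and 78.4% in replicate 2. In replicate 1 its neighbours were close: Mir145a (5976 reads), Mir214 (5877) and Mir744 (5767) did not differ from its 5768 reads beyond counting error (exact two-sided binomial test, adjusted over 12 neighbour comparisons, p = 0.0673, 0.346 and 1). Mir34a, 3 places above, had 6274 reads (adjusted p = 5.56e-06, same exact test), and Mirlet7c-2 and Mir361, below, had 4919 and 4901. In replicate 2 it differed from all 6 neighbours beyond counting error, between Mir30d (85516 reads, adjusted p = 1.13e-37, same exact test) and Mir30a (62949 reads). The test calls small gaps at the depth of replicate 2: Mir30d was at 16183 CPM and Mir21a at 15190 CPM. Further neighbours there were Mir29a, Mir26b, Mir191 and Mir208a.

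**Figure D1:**
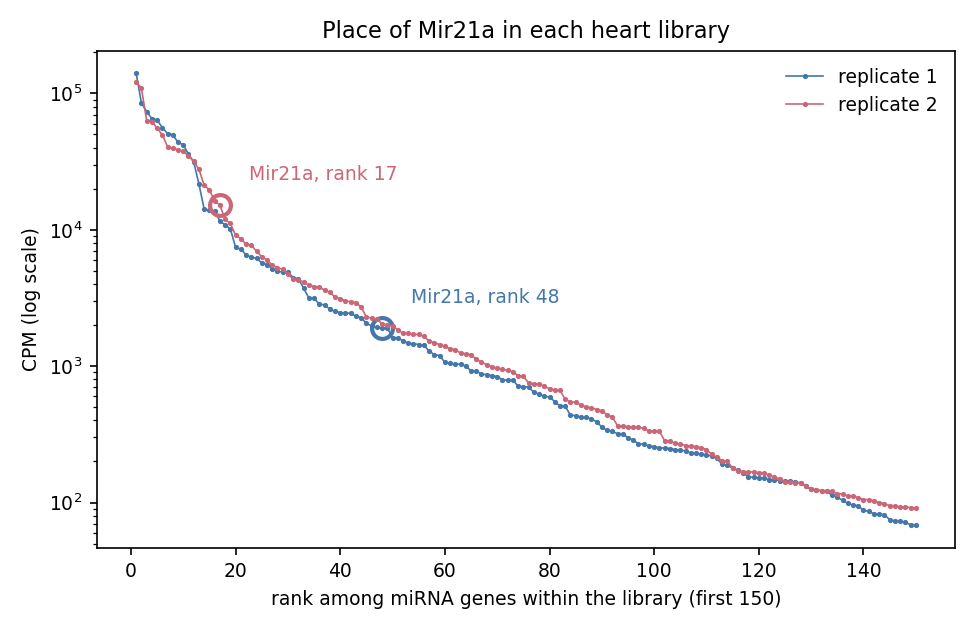
CPM on a log scale against rank for the 150 most abundant miRNA genes of each library, with Mir21a ringed. The 2 curves run close together, while Mir21a stands at rank 48 (1899 CPM) in replicate 1 and rank 17 (15190 CPM) in replicate 2.

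The move of 31 places passed every gene from rank 17 to rank 47 of replicate 1, and no gene passed Mir21a. The 16 genes above it in replicate 1 that stayed above were those of ranks 1 to 16, led by Mir378a and Mir126a. Among the 31 passed genes were the cardiomyocyte miRNAs Mir499 and Mir208a, the leukocyte miRNAs Mir155 and Mir150, the erythroid Mir451a and Mir144, and Mir214 and Mir34a. Their own log2 ratios ran from -3.06 to 1.36 with a median of 0.04, and 27 of the 31 lay within 1 of 0. Of 55 genes among the first 50 of either library, 2 rose by more places.

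Between libraries, Mir21a was 8.0-fold higher in replicate 2 (95% exact interval 7.79 to 8.22), a log2 ratio of 3.0 (2.96 to 3.04). Its raw reads rose 13.9-fold while the miRNA reads rose 1.74-fold. Its reads were compared with the split that the 2 miRNA totals predict (binomial, exact and two-sided), and the adjusted p was returned as 0, below the smallest number that is stored. That test calls small differences at this depth: it called 224 of 424 tested genes (52.8%), with replicate 2 above replicate 1 for 30.9% and below it for 21.9%. When counts were scaled by all reads of the library in place of miRNA reads, every log2 ratio fell by 0.25, and the split of 131 higher in replicate 2 and 93 higher in replicate 1 became 81 (19.1% of those tested) and 145 (34.2%). On that scale Mir21a still had a log2 ratio of 2.75.

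Set against the spread of this pair of libraries as a whole, the call remained, near the threshold. In the exact test of edgeR, with 1 common dispersion estimated from the same pair (a coefficient of variation of 40.5%), Mir21a had an adjusted p of 0.0366. That test called 2.36% of genes as higher in replicate 2, 10 in all with Mir21a among them, and 0.472% as higher in replicate 1.

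The ratio was larger than that of most abundant genes. The median absolute log2 ratio was 0.50 over all 424 tested genes and 0.28 over the 67 genes with a mean of at least 1000 CPM, a limit chosen after the values were seen. Of all tested genes 19 had a higher ratio, and of those 67 it was 1, Mir31, named after its values were seen, with 228 and 15421 reads and a log2 ratio of 5.28. That number depends on the limit: Mir205 (mean 983 CPM, log2 ratio 9.73) and Mir200c (867 CPM, 4.32) lie just under it, and Mir31 passes it through replicate 2 (75.1 and 2918 CPM). Mir144, an erythroid miRNA, had a larger difference in the other direction (-3.06). Mir22 and Mir126a, more abundant than Mir21a, had log2 ratios of 1.35 and 0.37.

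**Figure D2:**
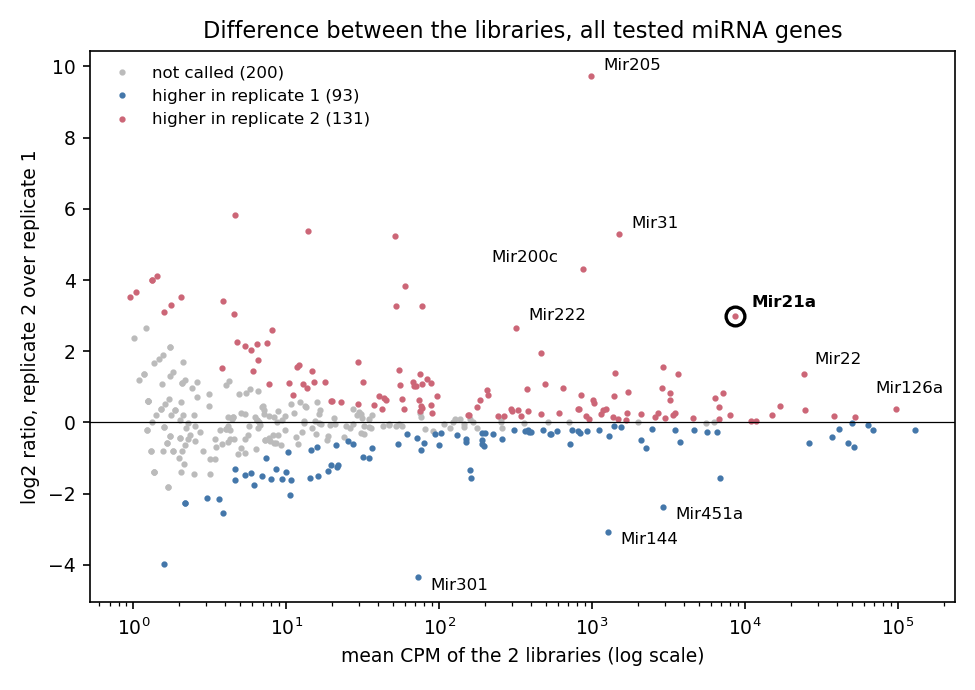
Log2 ratio of replicate 2 over replicate 1 against mean CPM (log scale) for the 424 tested miRNA genes, coloured by the exact binomial call. Ratios narrow as the level rises, and Mir21a (ringed, 3.0 at 8545 CPM) lies above the other genes of like abundance.

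The size of the gap in reads was large as well. Over all genes, the CPM gained by the 403 genes that were higher in replicate 2 summed to 126529, or 12.7% of the miRNA reads. Mir21a gave 13291 CPM of this, 10.5%, the third largest gain after Mir126a (24579 CPM) and Mir22 (21188 CPM), and those 3 genes made up 46.7% of all gains. Mir126a is the main miRNA of endothelium, and Mir22 an abundant miRNA of heart muscle. The next gains, of Mir149 and Mirlet7g, were 6103 and 5907 CPM. On the other side, the largest losses were of Mir23a (-24243 CPM), Mir378a (-19802), Mir23b (-18365), Mir99a (-10374) and Mirlet7b (-10321). Starting from rank 48, Mir21a differed from the other 9 of these 10 genes, which were at rank 16 or above in both libraries.

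The effect of the gap on the shares of other miRNAs was small. With Mir21a left out of the totals, every other CPM value was 0.190% higher in replicate 1 and 1.54% higher in replicate 2, so every other log2 ratio moved by 0.019. For example, the share of Mir378a went from 14.03% to 14.05% in replicate 1 and from 12.05% to 12.23% in replicate 2, and that of Mir126a from 8.52% to 8.54% and from 10.98% to 11.15%. By the same measure, leaving out Mir126a, Mir23a, Mir378a, Mir22 or Mir23b moved the other ratios more, by 0.039, -0.037, -0.033, 0.031 and -0.028, and Mir21a came next.

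The calls of other genes hardly changed. Of 423 other tested genes, 223 were called with Mir21a in the totals and 224 without it, and 4 ratios changed sign. Mirlet7e (log2 ratio 0.02 with and 0.04 without) and Mir345 (0.25 and 0.27) became called, with adjusted p of 0.00748 and 0.0498 in the exact binomial test, while Mirlet7d (-0.03 and -0.01) lost its call (adjusted p = 0.0525, same exact test). The call of Mirlet7d with Mir21a in the totals had an adjusted p of 7.94e-10 (same exact test), on 154132 and 262757 reads. These 3 genes were named after their values were seen.

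Within a library, ratios of reads need no scaling. The ratio of Mir21a was higher in replicate 2 against 404 of 423 other tested genes (95.5%). Rises against single markers therefore mostly restate its own gap. Against the cardiomyocyte miRNA Mir208a, Mir21a went from 0.366 reads per read in replicate 1 (95% exact interval 0.355 to 0.378) to 1.66 (1.64 to 1.68) in replicate 2. Against Mir499, another cardiomyocyte miRNA, it went from 0.342 to 2.77. Mir21a was thus below both heart muscle miRNAs in replicate 1 and above both in replicate 2. For Mir126a of endothelium the values were 0.0223 and 0.138, and for Mir143 of smooth muscle 0.0434 and 0.393. Against Mir214, a miRNA of fibroblasts, Mir21a was level in replicate 1 (0.981, interval 0.946 to 1.02) and 3.99-fold higher in replicate 2.

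The ratio also rose against miRNAs of blood cells, as it did against most tested genes. Per read of Mir150 and Mir155, of lymphocytes and activated immune cells, Mir21a had 0.668 and 0.603 reads in replicate 1 and 4.88 and 4.21 in replicate 2. Per read of Mir142, made in all blood lineages, it had 4.52 and 43.4. The erythroid Mir144 and Mir451a gave the widest gaps, from 0.838 to 56.1 and from 0.388 to 16.0, since both were lower in replicate 2. Mir205 and Mir200c, of epithelium, went the other way, while the other 5 genes of the epithelial list, like the miRNAs above, had log2 ratios below that of Mir21a (-0.68 to 1.62). Mir21a had 824 reads per Mir205 read in replicate 1 (7 reads, interval 400 to 2050) and 7.74 in replicate 2, and 23.0 and 9.20 per Mir200c read.

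**Figure D3:**
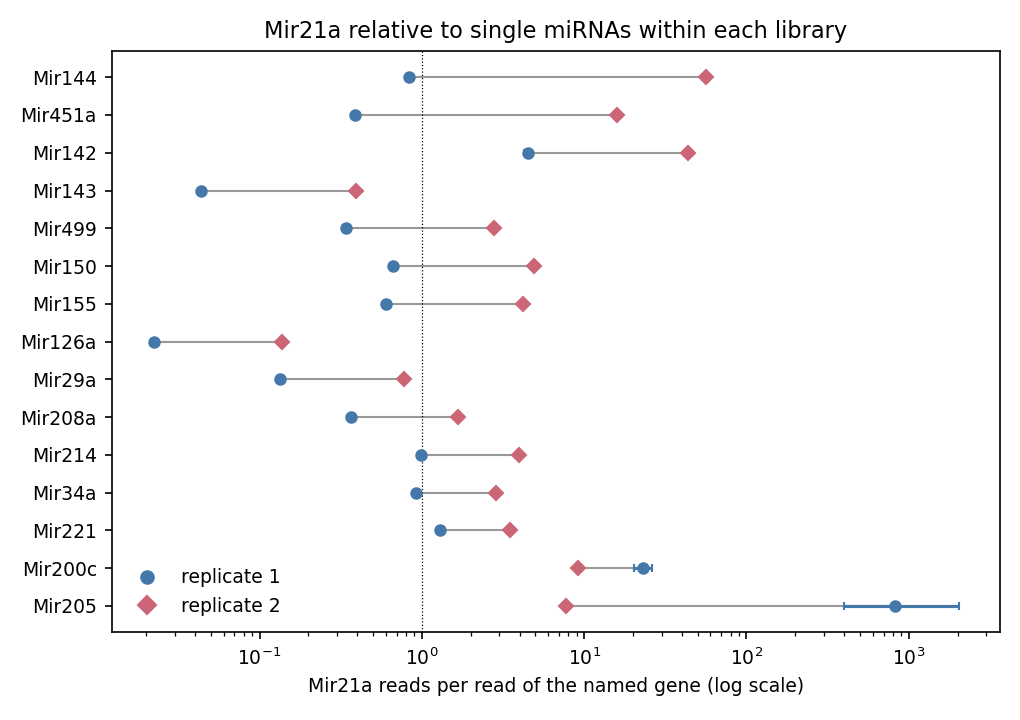
Mir21a reads per read of 15 other miRNAs within each library, on a log scale, with 95% exact intervals that cover counting error only (most are narrower than the symbols). The ratio is higher in replicate 2 for 13 of them and lower for Mir200c and Mir205. Over all tested genes it is higher against 404 of 423 (95.5%).

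Scaled by miRNA reads, other miRNAs raised in injured or fibrotic heart were also mostly higher in replicate 2, by less. Apart from Mir21a this list has 13 members, of which 12 could be tested: 8 rose towards replicate 2, 1 fell and 3 passed in neither direction, against 30.9% and 21.9% of all tested genes. Scaled by all reads, 6 were higher in replicate 2 and 2 in replicate 1, against 19.1% and 34.2% of all tested genes. Their median log2 ratio was 0.90, beside 0.07 over all 424, and none reached that of Mir21a or passed the exact test of edgeR. Mir222 and Mir221, of endothelium, had 2.64 and 1.57, Mir34a, a p53 target linked to cardiac ageing, had 1.36, and Mir208b, in an intron of the beta myosin gene Myh7, had 1.21. Mir214 had 5877 and 20122 reads (0.98), and Mir146, the gene of miR-146a, 4662 and 9772 (0.27, and not called when scaled by all reads). Mir155 had 0.20, which turned to -0.05 when scaled by all reads. The member that fell was Mir199b (-0.84), and Mir199a-2 (0.83), Mir212 (-0.04) and Mir146b (-0.48) were not called. Mir155, Mir146, Mir146b, Mir199a-1, Mir199a-2, Mir199b, Mir214, Mir208b, Mir221 and Mir222 are also members of the cell type lists, so the lists are not independent of each other.

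Repressors of collagen or of the matrix growth factor CTGF, a group of 15 from the miR-29, miR-30, miR-133 and miR-101 families, had smaller ratios. Scaled by miRNA reads, 8 rose towards replicate 2, 2 fell and 5 passed in neither direction, with a median log2 ratio of 0.25, against 30.9% and 21.9% of all tested genes. Scaled by all reads, 3 were higher in replicate 2 and 5 in replicate 1, shares near the 19.1% and 34.2% of all tested genes, with a median of -0.0012. Mir29a, the most abundant of them, had 42989 and 103945 reads (0.47), so that Mir21a went from 0.134 to 0.772 reads per Mir29a read. Mir30d and Mir30a had 0.22 and 0.04, both below 0 when scaled by all reads. The 2 that fell were Mir101a (728 and 429 reads, -1.56) and Mir30e (21865 and 31813 reads, -0.26). Over the 15 genes the log2 ratios ran from -1.56 to 1.70.

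**Figure D4:**
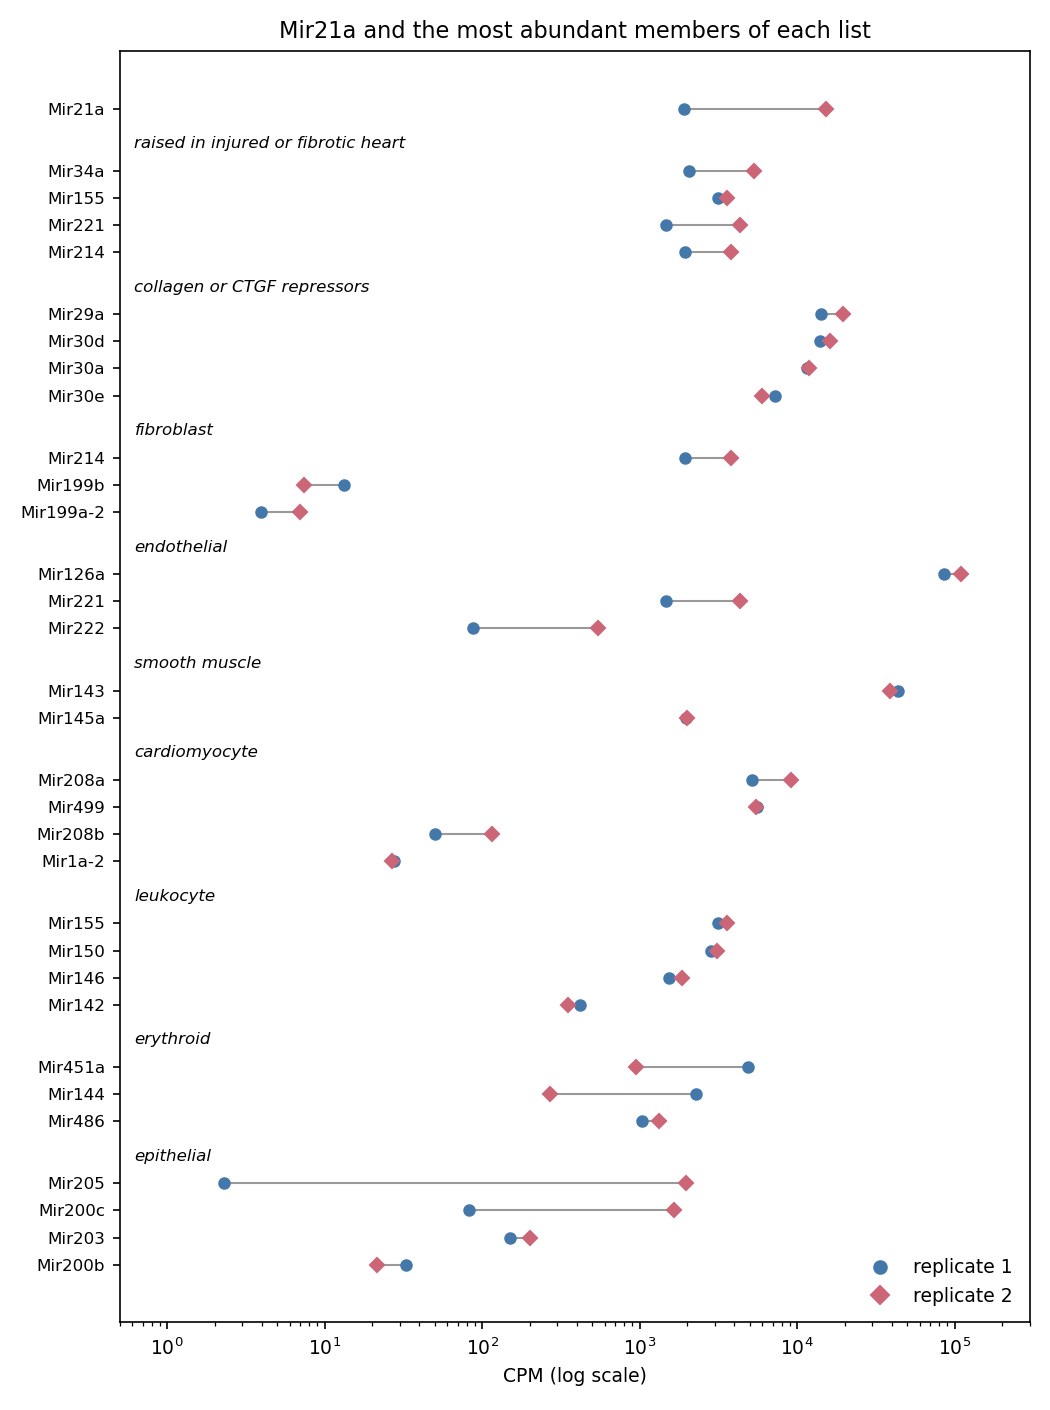
CPM on a log scale in replicate 1 (circles) and replicate 2 (diamonds) for Mir21a and up to 4 of the most abundant members with reads in both libraries of 9 lists. Mir21a moves from 1899 to 15190 CPM, further than any plotted member of the injury, fibroblast, endothelial, muscle and leukocyte lists, while Mir205, Mir200c and Mir144 move further.

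Markers of the cell types that could carry Mir21a moved in different ways beside it, and their part in the gap was not tested. In bulk tissue more cells of a type and more RNA per cell cannot be told apart. The 4 fibroblast genes summed to 1952 CPM in replicate 1 and 3823 in replicate 2, nearly all of it Mir214. Mir199a-1 was at 0 reads in replicate 1 and 3 in replicate 2, and Mir199a-2 and Mir199b were under 50 reads in both. By the exact binomial test Mir214 was higher in replicate 2 (log2 ratio 0.98), Mir199b was lower (-0.84, on 40 and 39 reads) and Mir199a-2 was not called. The mature miR-199a comes from more than 1 hairpin, so these counts and the fibroblast sum may be incomplete. The 6 leukocyte genes summed to 8095 and 9090 CPM, with none at 0. Of them 4 were higher in replicate 2 and 1 in replicate 1 (30.9% and 21.9% of all tested genes), which became 0 and 3 when scaled by all reads (19.1% and 34.2%). The 3 endothelial genes summed to 86800 and 114721 CPM and were all higher in replicate 2, and the 8 cardiomyocyte genes to 10844 and 14812 CPM, with 2 higher in replicate 2 and 6 not called, which became 2 higher and 2 lower when scaled by all reads. These few calls, and those of the fibroblast list, are read against the same shares of all tested genes. The rise of the cardiomyocyte sum was nearly all that of Mir208a (5184 and 9154 CPM), while Mir499 had 5559 and 5487 CPM. The 2 smooth muscle genes summed to 45692 and 40641 CPM.

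As a fold, the summed level changed most in the epithelial and erythroid lists, while in CPM it changed most in the endothelial list. The 7 epithelial genes summed to 298 CPM in replicate 1 and 3874 in replicate 2, with none at 0. In replicate 1 Mir203 was the most abundant of them (150 CPM), and in replicate 2 Mir205 (1963 CPM) and Mir200c (1652 CPM). Mir205 (7 and 10372 reads) and Mir200c (251 and 8728 reads) both passed the exact test of edgeR (adjusted p = 5.81e-12 and 0.00091), while Mir200b (-0.61) and Mir429 (-0.68) were lower and Mir203 (0.43) and Mir141 (1.62) higher by the exact binomial test. Mir203 lost that call when scaled by all reads. The 3 erythroid genes summed to 8201 and 2542 CPM: Mir144 and Mir451a were lower in replicate 2 (-3.06 and -2.37) and Mir486, also made in muscle, higher (0.35). Whether these shifts and the Mir21a gap have a common source was not tested.

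Among the 245 genes whose reads summed to 100 or more over the libraries, the 5 with the log2 ratio nearest to that of Mir21a were Mir34c (3.26), Mir26a-1 (3.27), Mir222 (2.64), Mir183 (3.82) and Mir107 (1.96). The likeness is over 2 libraries only, and it weakens quickly: their distances from Mir21a on the log2 scale were 0.26, 0.27, 0.36, 0.82 and 1.04. All 5 were far less abundant, from 30 and 500 reads (Mir34c) to 579 and 3924 reads (Mir107). Mir34c, Mir26a-1 and Mir183 passed the exact test of edgeR (adjusted p = 0.0271, 0.0254 and 0.0057) and Mir222 and Mir107 did not (0.117 and 0.494). All 5 were picked by this same ratio, so these results mostly restate the choice. Of all tested genes 2.36% passed that test as higher in replicate 2. None of them has a mature sequence in the RefSeq table with the miR-21 seed. The mature miR-26a also comes from another hairpin, Mir26a-2, so the Mir26a-1 counts may be incomplete.

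On chromosome 11, the nearby miRNA genes with reads had ratios below that of Mir21a, 1 in the same direction and 2 in the other. Within 2 Mb, 6 other miRNA genes are annotated, and 3 of them reached 10 reads over the libraries. Mir301, 0.529 Mb away, had 422 and 36 reads, the opposite direction to Mir21a. Its log2 ratio was -4.35, and edgeR's exact test gave it an adjusted p of 0.000951. Mir142, 1.17 Mb away, had 1277 and 1848 reads (-0.27), and Mir378b, 1.77 Mb away, 24 and 113 reads (1.44), both called by the exact binomial test and not by edgeR.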

How the data were processed

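The authors deposited 1 table of whole-number read counts per miRNA gene for each library, not normalized, with 3 count columns (either strand and each strand) after 4 summary lines. Per the labels the build is mm10, and per the text deposited with the tables the annotation is GENCODE M21. Aligner, counter and adapter trimming: not given in the sources used here. No strand is named: the column used as sense was set by its position. It holds more reads in miRNA genes than the other strand column in both libraries. All 2202 gene IDs matched GENCODE M21, and miR-146a was matched to Mir146 through a RefSeq synonym. Summary lines stayed out of totals and tests.

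CPM, Wilson and Clopper-Pearson intervals (95%) and exact two-sided binomial tests (scipy 1.17.1, Python 3.11.15; genes whose reads summed to 10 or more, Benjamini-Hochberg over all 424, threshold 0.05) were computed from the counts. Since the tables hold reads, not molecules, intervals and limits cover counting error only. The exact test of edgeR (4.0.16, R 4.3.3) used TMM factors and the common dispersion of 321 genes with at least 10 reads in each library. That dispersion takes in true differences as well. DESeq2 1.42.0 gave size factors only. Both tests were checked on data with known answers. The alternatives were other scalings, the column for either strand, other denominators and no filter.

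Named genes were Mir21a to Mir21c with any gene sharing the miR-21 seed, the 3 genes above and 3 below Mir21a in each library, the 5 nearest in log2 ratio, the 5 largest CPM gains and losses, miRNA genes with reads within 2 Mb, and up to 4 of the most abundant members of each of 10 lists. Defining markers at low counts, list members named beyond these 4, and the 15 genes set beside Mir21a read for read, were named after their values were seen. The gene, the lists and these rules were chosen with earlier results of these data known. The miR-21 list itself had no tested member besides Mir21a.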

Additional observations from a re-analysis of the deposited data

How the results depend on the processing

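Of 7 alternatives for the ratio of Mir21a, all but the exact test of edgeR repeat the binomial test with other totals, column or filter. Those could hardly change the call of so large a difference. The log2 ratio of Mir21a kept its direction and its call under all 7, from 2.75 (all reads of the library) to 3.02 (totals without Mir21a), with a largest adjusted p of 0.0366 (exact test of edgeR). Its mean share of 0.854% became 1.15% in the column for either strand, in which Mir378a had 0 reads and Mir126a 37 and 38, 0.387% with reads mapped to several places in the denominator and 0.235% of all reads; leaving out a replicate gives 0.190% or 1.52%. The move of other log2 ratios when Mir21a is left out (0.019) was 0.0088 with reads mapped to several places and 0.026 for either strand. Its part of the CPM gains (10.5%) was 13.1% for either strand and 10.6% over genes with at least 10 reads in each library.

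Of the 224 genes that differed (131 higher in replicate 2, 93 in replicate 1), the exact test of edgeR called 12 (10 and 2), and a log2 ratio of at least 1 as well, added after the data were seen, left 86 (55 and 31). With all reads of the library as totals, 81 were higher in replicate 2 and 145 in replicate 1. On that scale 7 named genes reversed: Mirlet7g (-0.087), Mir30d (-0.029), Mir30a (-0.21), Mir191 (-0.21), Mir155 (-0.054), Mir150 (-0.12) and Mirlet7c-2 (-0.17). For either strand Mir126a reversed (-0.76), on the 37 and 38 reads that column holds of its 258891 and 580354 sense reads. That column sets 784246 (replicate 1) and 1365026 (replicate 2) reads aside as ambiguous, in no gene count. Of 51 other named genes 37 lost their call in the exact test of edgeR, and the cause was not tested. The other 14 kept their result, but Mirlet7e, Mir499, Mir145a, Mir345, Mir1a-2 and Mir199a-2 among them had no call to lose. With 2 libraries in 1 group, no difference between them has a replicate check. Depth limits Mir21b and Mir21c to at most 3 reads per library.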
